A study of Homo sapiens with 6 samples.

Results

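Described here are 10 genes of lipoprotein particles and their assembly (APOA1, APOA2, APOB, APOC1, APOC3, APOE, APOH, APOM, MTTP and LCAT), taken by gene symbol from the 19202 genes of the count table. MHCC97H, a human hepatocellular carcinoma line with high metastatic potential, was profiled by RNA sequencing in a sorafenib-sensitive control group and a sorafenib-resistant group, with 3 libraries in each. Sorafenib is a multikinase inhibitor given in advanced liver cancer. How the resistance was obtained, whether resistant cells are 1 clone or a pool, and whether drug was present at harvest were not given in the sources used here. Both groups come from 1 cell line, and no label states that each replicate was its own culture, so the p-values cover only the variation from library to library, which may be technical.

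Of the 10 genes, 9 had a count in at least 1 library and 6 passed the filter on low counts and were tested: APOB, MTTP, APOH, APOC1, APOE and LCAT. APOB, the structural protein of very-low-density lipoprotein, and MTTP, which loads lipid onto it, were lower in resistant cells, with mean levels that were 0.348 and 0.389 times those in control. APOH, APOC1, APOE and LCAT did not pass the test. APOA1, APOA2, APOC3 and APOM had too few counts to be tested.

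Hepatocytes package triglyceride and cholesterol into particles around a single copy of apolipoprotein B. The transfer protein encoded by MTTP, bound to protein disulfide isomerase (P4HB), adds lipid to the growing APOB chain in the endoplasmic reticulum, and the particle leaves in vesicles coated with COPII. APOC1, APOC3 and APOE exchange between particles in plasma and govern lipolysis and receptor uptake, while APOA1 and APOA2 form high-density lipoprotein, on which LCAT esterifies cholesterol. APOM carries sphingosine phosphate on high-density lipoprotein, and APOH is an abundant phospholipid-binding glycoprotein of plasma. In liver these genes are under the control of liver-enriched transcription factors such as HNF4A and of lipid-sensing nuclear receptors.

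RefSeq promoter entries (GRCh38.p14) were matched for APOA2, APOC1, APOE, APOH, APOM and MTTP, 6 of the 10 genes with 9 start sites, and were not matched for APOA1, APOB, APOC3 and LCAT. Within the 250 bases before each start, 2 short motifs were searched on both strands: AAAGGTCA (the extended core bound by HNF4A and other nuclear receptors) and CAAAGTCCA (an HNF4 element). APOB, called lower like MTTP, could not be searched, and a link between motif and level was not tested. The only match was in MTTP, and this site is shown in 30 bases, with the matched letters in capitals.
MTTP, nuclear receptor core, chr4:99574763-99574792, plus strand: agtttggagtcTGACCTTTccccaaagata

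In MTTP the match, on the strand opposite to the gene, lay 50 to 43 bases before the second RefSeq start. GENCODE 29 exons of any gene on either strand, summed over genes, held 117 bases inside the 250 bases before this start. The same sum was 435 for APOC1, 250 for APOM, 221 for the first MTTP start and 153 for the second APOE start. A sum above 250 arises where exons of more than 1 gene cover the same bases. All of these windows, with that of the second MTTP start, are thus not purely untranscribed upstream sequence. At the other starts the sum was 3 to 42. The first MTTP start, farther upstream, held neither motif. Over all 35116 promoter windows of the same length, AAAGGTCA was present in 1.05% and CAAAGTCCA in 0.325%. A match describes letters in the reference sequence and is not a measured binding site.

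Library totals ran from 1913469 to 5345272 counts, the least in control replicate 1. Levels are CPM, that is, counts relative to the library size after TMM normalisation (trimmed mean of M-values), and a mean is followed by ± its SD over the 3 libraries of a group. A level of 3 counts in a library, taken as the limit that a count of 0 allows, corresponded to 0.565 to 1.54 CPM. That limit covers counting error only. Most non-zero counts were even, and if each fragment was counted through both of its reads, 3 fragments are 6 counts and the limit is 1.13 to 3.09 CPM. Of 26 other secreted hepatocyte proteins 13 were tested, and the list summed to 254 to 267 CPM in control and 136 to 161 CPM in resistant libraries. Its levels were uneven: ITIH2, the most abundant, had 67.6 ± 8.82 CPM in resistant and 141 ± 14.5 CPM in control libraries and albumin (ALB) 5.53 ± 3.502 CPM in resistant and 17.3 ± 3.75 CPM in control libraries, whereas TTR and HP had 10 and 6 counts over all libraries. Summed endothelial markers (8 genes) stood at 141 CPM in resistant replicate 3 against 41.1 to 70.4 CPM in the other libraries, and the fibroblast and stellate markers (8 genes) at 61.8 CPM against 18.8 to 40.2 CPM. The part of these transcripts in the results was not tested, and the calls on the 10 genes were the same without resistant replicate 3. In bulk RNA, fewer expressing cells and less RNA per cell cannot be told apart.

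Levels per kilobase used all annotated exons of a gene, merged over its transcripts (1332 bases for APOH, 1231 for APOC1). Which transcripts the cells make was not measured, and a single transcript can be shorter, so the order of the genes depends on this choice. By this measure APOH had the highest level of the 10 genes in both groups. It had 21.2 ± 1.39 CPM per kb in control and 16.4 ± 2.62 in resistant cells (SD, n = 3 each). APOC1 followed with 14.1 ± 2.04 and 10.6 ± 4.04 CPM per kb. The control libraries of APOH and APOC1 did not overlap, whereas in resistant cells they did. MTTP, APOE, APOB, LCAT and APOM came next in control, with 3.57 ± 0.459, 2.97 ± 1.496, 1.56 ± 0.391, 1.20 ± 0.747 and 0.509 ± 0.464 CPM per kb. Of these neighbours in control, MTTP and APOE overlapped, APOE and APOB did not, and APOB, LCAT and APOM overlapped with the next in turn. In resistant cells APOB, at 0.545 ± 0.338 CPM per kb, came after APOE (2.995 ± 0.869), MTTP (1.39 ± 0.780), LCAT (1.002 ± 0.392) and APOM (0.804 ± 0.480). The libraries of APOB there overlapped those of LCAT, APOM and MTTP. APOC3, APOA1 and APOA2 were at or near 0.

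**Figure D1:**
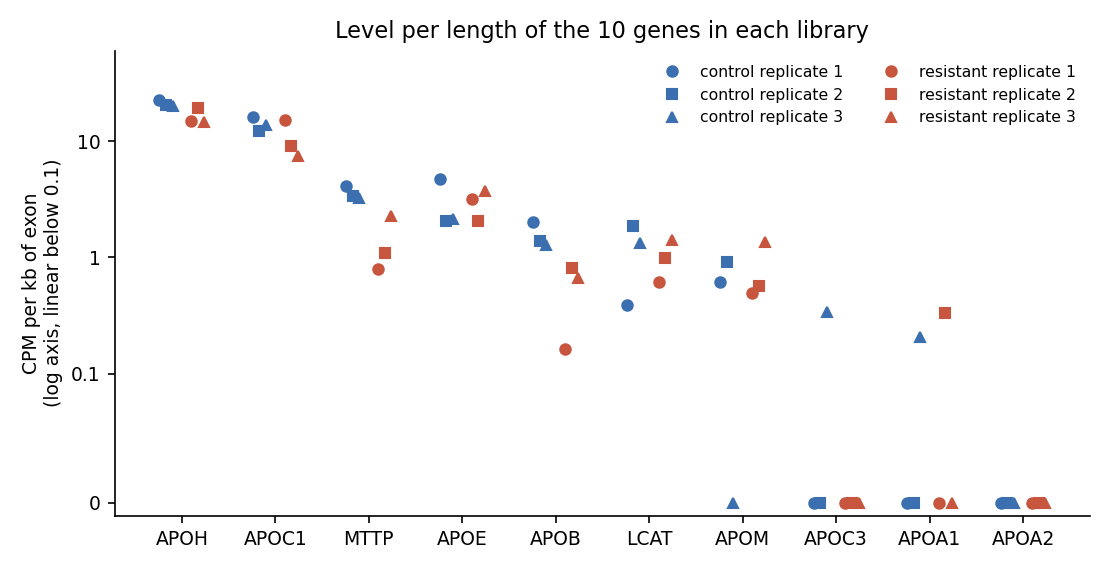
Level of each of the 10 genes in CPM per kilobase of exon (vertical axis, logarithmic above 0.1) in the 3 control (blue) and 3 resistant (red) libraries, ordered by the control mean. APOH and APOC1 lie highest, and APOC3, APOA1 and APOA2 are at 0 in most libraries.

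APOB (Entrez 338; chromosome 2, 21001429 to 21044073, minus strand) encodes the protein that stays with a very-low-density or low-density particle for life. It had 29.8, 20.7 and 19.1 CPM in control replicates 1, 2 and 3, and 2.44, 11.99 and 9.82 CPM in resistant replicates 1, 2 and 3. Every resistant library lay below every control library, and resistant replicate 1 was by far the lowest, with 9 counts against 48 to 110 in the others. The mean was 8.08 ± 5.01 CPM against 23.2 ± 5.79 CPM in control (SD, n = 3 each). The log2 fold change (log2FC, resistant over control) was -1.47, its standard error (SE) 0.34 and its edgeR adjusted p 0.00108, where edgeR stands for its quasi-likelihood F test with adjustment over all tested genes. Leaving out each library in turn gave -1.83 to -1.05, and the smallest size came without resistant replicate 1.

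MTTP (Entrez 4547; chromosome 4, 99563761 to 99623999, plus strand), the lipid-transfer subunit, was also lower in resistant cells. Its levels were 22.1, 18.1 and 17.6 CPM in control replicates 1, 2 and 3. In resistant replicates 1, 2 and 3 they were 4.33, 5.88 and 12.3 CPM. The groups again did not overlap, and here resistant replicate 3 was the highest of its group. From 19.3 ± 2.48 CPM the mean went to 7.49 ± 4.21 CPM (SD, n = 3 each), for a log2FC of -1.32 (SE 0.33; edgeR adjusted p 0.0027). The log2FC was -1.88 without resistant replicate 3, the library with the high endothelial sum, and -1.04 without resistant replicate 1. MTTP shares 19 of its 5398 exon bases with TRMT10A on the opposite strand, and whether the counting used strand was not given in the sources used here.

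**Figure D2:**
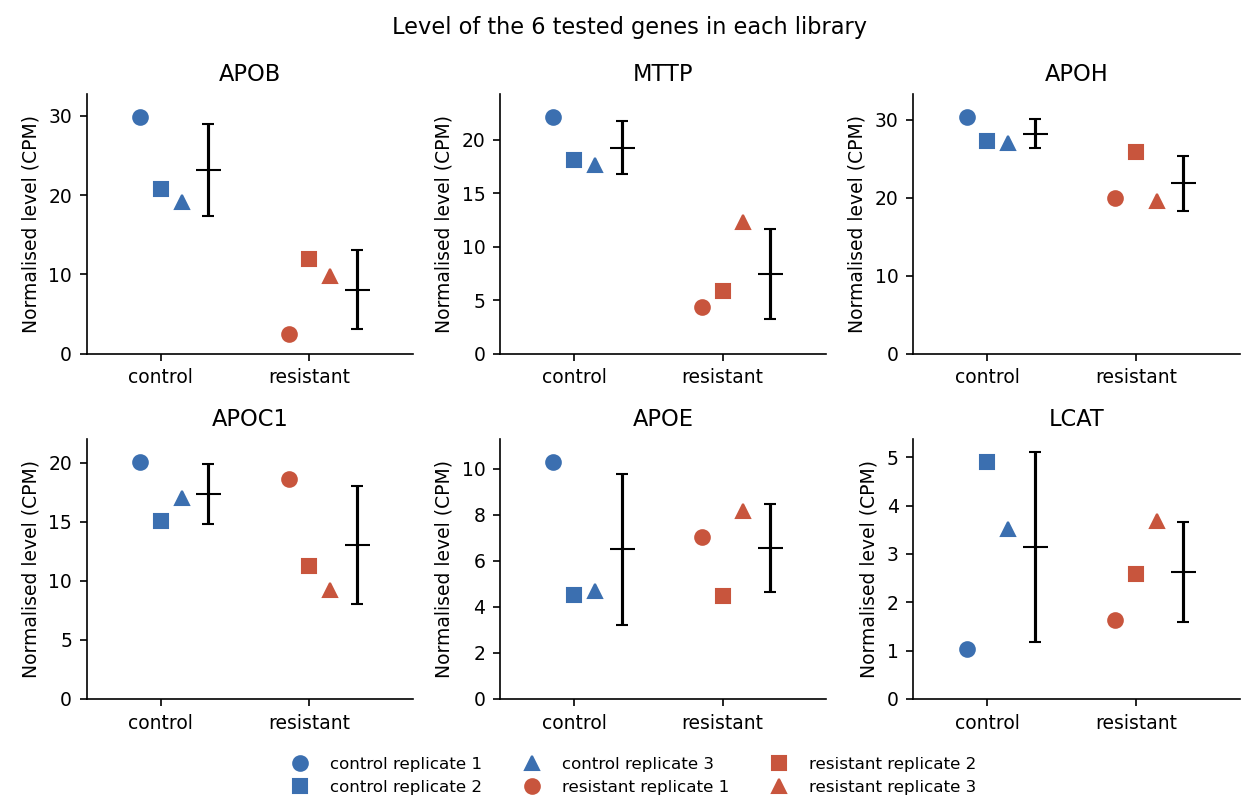
Normalised level (CPM, linear axis from 0) of the 6 tested genes in each library; marks give the replicate, and the bar beside each group is its mean ± SD (n = 3). For APOB, MTTP and APOH all resistant libraries lie below all control libraries, and for APOC1, APOE and LCAT the groups overlap.

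APOH (Entrez 350; chromosome 17, 66212033 to 66256525, minus strand) had the most counts of the 10 genes, 576 over all libraries. Control replicates 1, 2 and 3 had 30.3, 27.3 and 26.99 CPM, and resistant replicates 1, 2 and 3 had 20.03, 25.9 and 19.6 CPM. The groups did not overlap, but resistant replicate 2 came close to the lowest control library. The means were 28.2 ± 1.85 and 21.8 ± 3.48 CPM (SD, n = 3 each), and the log2FC of -0.36 (SE 0.21) did not pass the test (edgeR adjusted p 0.235).

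Ratios of counts within a library do not depend on scaling and were computed for 3 pairs chosen after the values were seen. APOB over APOH was 0.983, 0.759 and 0.707 in control replicates 1, 2 and 3 and 0.122, 0.464 and 0.500 in resistant replicates 1, 2 and 3. MTTP over APOH was 0.729, 0.662 and 0.652 in control and 0.216, 0.227 and 0.625 in resistant cells, in the same order of replicates. Both ratios were lower in every resistant library, with log2 differences of -1.41 and -1.12, each with a two-sided exact permutation p of 0.10, the smallest that 3 against 3 libraries allow (0.15 adjusted over the 3 ratios). APOB over MTTP overlapped between groups, at 1.35, 1.15 and 1.08 in control and 0.563, 2.04 and 0.800 in resistant cells (exact permutation p = 0.70).

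APOC1 and APOE, both carried on triglyceride-rich particles, neighbour each other on the plus strand of chromosome 19, at 44914247 to 44919349 and 44905754 to 44909393. APOC1 (Entrez 341), which restrains lipolysis and receptor binding, had 20.1, 15.1 and 17.02 CPM in control replicates 1, 2 and 3 and 18.7, 11.3 and 9.21 CPM in resistant replicates 1, 2 and 3. Resistant replicate 1 lay inside the control range and the others below it, and the log2FC of -0.41 (SE 0.29) did not pass the test (edgeR adjusted p 0.345). The log2FC of APOC1 was -0.19 without resistant replicate 3 and -0.73 without resistant replicate 1. APOE (Entrez 348), the ligand for remnant receptors, had 10.3, 4.52 and 4.69 CPM in control and 7.04, 4.47 and 8.18 CPM in resistant cells. Control replicate 1, the shallowest library, was the highest of all 6, and the rest were mixed between groups. APOE had a log2FC of 0.10 (SE 0.47; edgeR adjusted p 0.907), which turned to -0.13 without control replicate 2 and reached 0.52 without control replicate 1. APOC1 shares 43.2% of its exon bases with a same-strand transcript of uncertain status in the annotation, and a pseudogene copy of APOC1 can share its reads, so its level is uncertain.

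The other genes of that cluster, APOC4 and APOC2, had 0 and 2 counts over all libraries. Neighbouring genes on either side of the cluster were well expressed and were not called. TOMM40, a channel of the mitochondrial outer membrane, had a log2FC of 0.18 (SE 0.11) and NECTIN2 one of 0.03 (SE 0.12). CLPTM1 had -0.01 (SE 0.10) and RELB -0.13 (SE 0.19).

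LCAT (Entrez 3931; chromosome 16, 67939750 to 67944131, minus strand), which esterifies cholesterol on high-density lipoprotein, had 1.03, 4.90 and 3.52 CPM in control replicates 1, 2 and 3. It had 1.62, 2.59 and 3.68 CPM in resistant replicates 1, 2 and 3. The groups overlapped fully, at 75 counts in all. Its log2FC of -0.35 (SE 0.61) did not pass the test (edgeR adjusted p 0.733), and was 0.12 without control replicate 2. LCAT shares 12.8% of its exon bases with SLC12A4 on the same strand, so its counts are uncertain.

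APOM (Entrez 55937; chromosome 6, 31652416 to 31658210, plus strand) had 2, 8 and 0 counts in control and 3, 4 and 11 in resistant replicates 1, 2 and 3, and was not tested after filtering. Its exons share 136 bases with BAG6 on the opposite strand. APOA1 (Entrez 335), the main protein of high-density lipoprotein, had 1 count in control replicate 3 and 2 in resistant replicate 2. APOC3 (Entrez 345), an inhibitor of lipoprotein lipase, had 1 count in control replicate 3. APOA2 (Entrez 336) was at 0 in all 6 libraries, which allows up to 0.565 to 1.54 CPM in a single one, or 1.13 to 3.09 CPM if both reads were counted. Since APOA1, APOA2 and APOC3 were under the limit of 3 counts in every library, a difference between the groups was not detectable at this depth. APOA1 (116835751 to 116837950, minus strand) and APOC3 (116829706 to 116833072, plus strand) lie in the cluster on chromosome 11, and APOA2 on chromosome 1 (161222292 to 161223631, minus strand). APOA4 and APOA5 of the same cluster had 2 and 4 counts. The flanking genes were transcribed: SIK3, a salt-inducible kinase, fell by 0.69 on the log2 scale (SE 0.16; edgeR adjusted p 0.00142), and ZPR1, a zinc finger protein, had a log2FC of 0.64 (SE 0.15; edgeR adjusted p 0.00186). Gene spans were taken by symbol from GENCODE 29 (GRCh38), whereas the build used for counting was not given in the sources used here.

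Among the 6 tested genes, 2 were called lower and 0 higher, where 12.3% of the 10804 genes tested were called lower and 11.7% higher (24.1% in either direction). For 3 of the 6 all resistant libraries lay below all control libraries, against 18.9% of all tested genes (38.1% without overlap in either direction). The median log2FC of the 6 was -0.38, and that of all tested genes -0.01. Summed over all 10 genes, the level ran from 89.5 to 115 CPM in the control libraries and from 54.9 to 65.1 CPM in the resistant ones, without overlap. The largest falls in mean level within this sum were those of the 2 called genes, APOB (23.2 to 8.08 CPM) and MTTP (19.3 to 7.49 CPM). Means of the uncalled APOH (28.2 to 21.8 CPM), APOC1 (17.4 to 13.1 CPM) and LCAT (3.15 to 2.63 CPM) fell less, and APOE stayed level (6.50 to 6.56 CPM). A drop of the sum apart from APOB and MTTP was not tested.

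**Figure D3:**
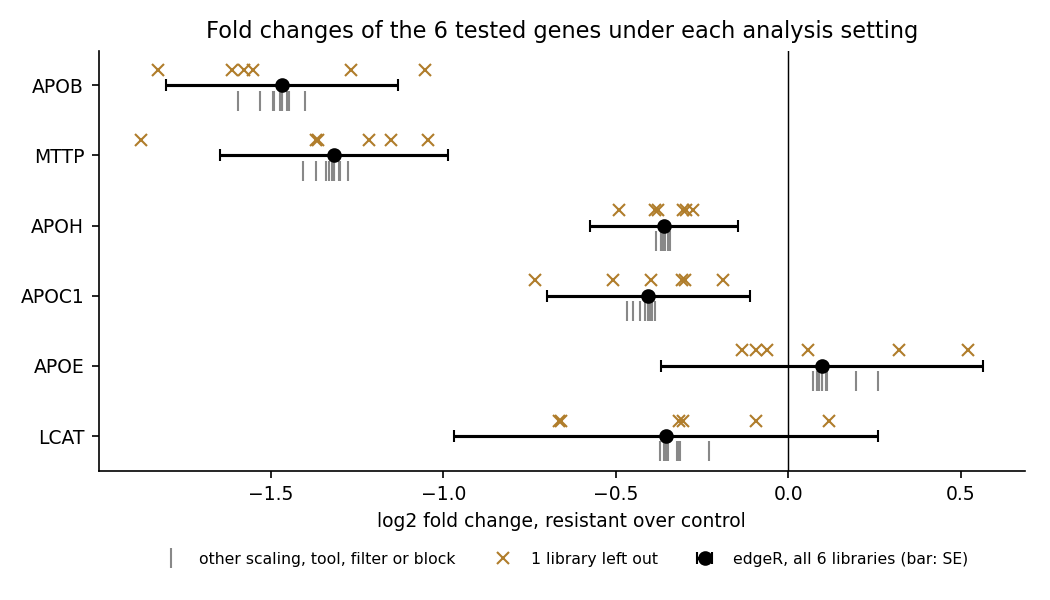
The log2 fold change (horizontal axis, resistant over control) of each tested gene with all 6 libraries (black, bar = SE), with 1 library left out (crosses) and under other scalings, tools, filters or the replicate block (grey ticks). APOB and MTTP stay at or below -1.04 in all settings shown, and APOE and LCAT have settings on both sides of 0.

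The other apolipoproteins (16 genes, 6 tested) had 2 members lower and 0 higher (median log2FC -0.74). Called were 33.3% of those tested, against 24.1% of all tested genes. Clusterin (CLU, apolipoprotein J), a secreted chaperone and the most abundant of them, had 286 ± 12.1 CPM in resistant and 474 ± 35.8 CPM in control libraries (log2FC -0.73, SE 0.09). APOL6, an intracellular apolipoprotein L, had 18.1 ± 6.35 CPM in resistant and 37.8 ± 4.35 CPM in control libraries (log2FC -1.06, SE 0.22). APOO and APOOL, which belong to the cristae-organising complex of mitochondria, were not called, and APOOL had a log2FC of -0.24 (SE 0.15).

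Genes of particle assembly and export from the endoplasmic reticulum (30 genes, 25 tested) had 9 called lower and 2 called higher, around a median log2FC of -0.11. This is 44% of those tested, against 24.1% of all tested genes. P4HB, the partner subunit of MTTP and the most abundant of the list, was lower, with 589 ± 16.04 CPM in resistant and 764 ± 22.4 CPM in control libraries (log2FC -0.38, SE 0.08). CREB3L3, a liver transcription factor anchored in the endoplasmic reticulum that drives triglyceride-handling genes, was at 2.93 ± 1.47 CPM in resistant and 15.2 ± 5.902 CPM in control libraries (log2FC -2.40, SE 0.43). The carboxylesterase CES1, which mobilises stored triglyceride, had a log2FC of -0.63 (SE 0.09), and MIA3 (TANGO1), a receptor for bulky cargo at exit sites, one of -0.88 (SE 0.16). SAR1A, a small GTPase that starts the COPII coat, was higher, with 103 ± 2.87 CPM in resistant and 49.7 ± 2.12 CPM in control libraries (log2FC 1.04, SE 0.13), and so was the coat subunit SEC24C (log2FC 0.63, SE 0.17). SAR1B, the SAR1 form whose loss blocks chylomicron export, was not called, at 46.8 ± 1.83 CPM in resistant and 49.3 ± 6.66 CPM in control libraries. TM6SF2, CIDEB and PLA2G12B, which act on the lipidation of very-low-density particles, were at 0 in all libraries. SAR1B and these 3 genes were chosen for naming after their values were seen.

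In the list of plasma remodelling and cholesterol efflux (21 genes, 20 in the table, 12 tested), 6 were lower and 0 higher (median log2FC -0.35). Its share called was 50%, where all tested genes had 24.1%. ABCA1, the exporter that lipidates APOA1 and the most abundant of the list, had a log2FC of -1.26 (SE 0.11), and the antioxidant lactonase PON2 one of -1.03 (SE 0.12). Hepatic lipase (LIPC), also chosen for naming after its value was seen, was lower at 10.6 ± 3.97 CPM in resistant and 26.1 ± 4.64 CPM in control libraries (log2FC -1.28, SE 0.28).

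Lipoprotein receptors and uptake genes (18 genes, 15 tested) had 4 lower and 0 higher calls (median log2FC -0.07). At 26.7% called, the list was near the 24.1% of all tested genes. LRP1, the hepatic receptor for APOE-bearing remnants, had 135 ± 20.5 CPM in resistant and 341 ± 16.6 CPM in control libraries (log2FC -1.33, SE 0.11). SCARB1, the receptor for high-density lipoprotein and the most abundant of the list, had 283 ± 20.9 CPM in resistant and 402 ± 37.8 CPM in control libraries (log2FC -0.51, SE 0.10). The large endocytic receptor LRP2 had 20, 22 and 10 counts in control replicates 1, 2 and 3 and 0, 4 and 2 in resistant replicates 1, 2 and 3. With resistant counts around the limit of 3, the size of its log2FC is not well determined: it was -3.46 (SE 0.81), and -4.39 and -2.86 when resistant replicate 2 or control replicate 1 was left out.

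**Figure D4:**
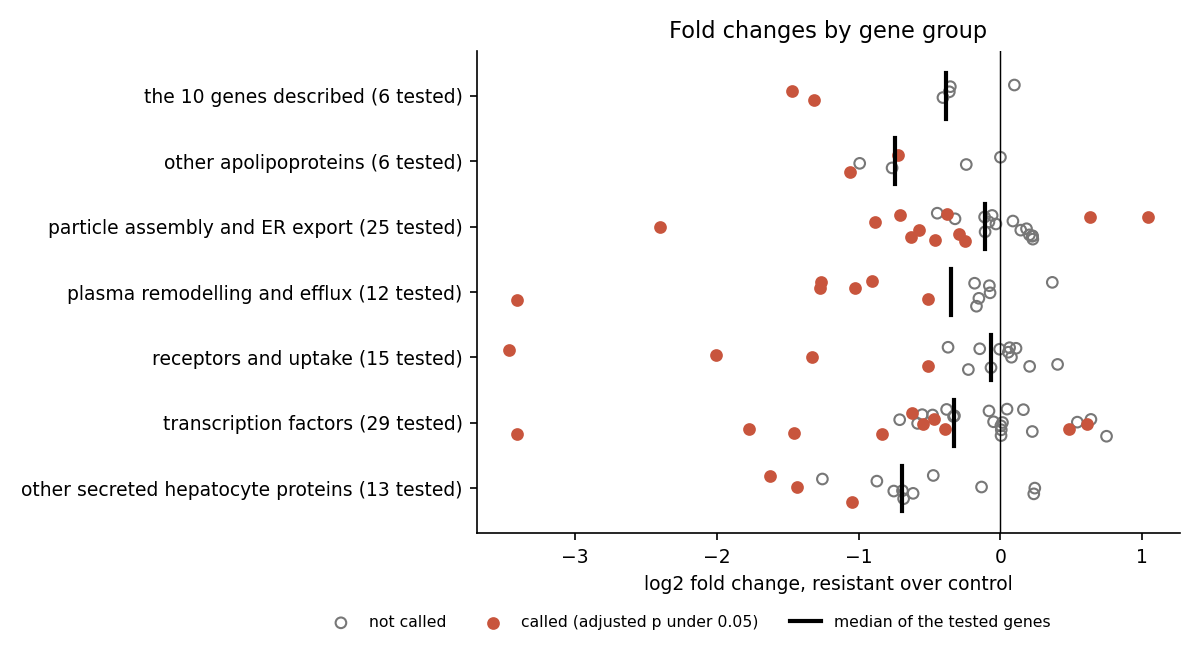
The log2 fold change (horizontal axis, resistant over control) of each tested gene by list, with called genes filled and the list's median as a black bar. LRP2 and NR5A2 are among the genes below -3, and the called genes above 0 are SAR1A, SEC24C, ESRRA and GATA6.

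Transcription factors of apolipoprotein genes (33 genes, 29 tested) had 8 lower and 2 higher calls (median log2FC -0.32). These calls were 34.5% of the list's tested genes, against 24.1% of all tested genes. The sterol regulators SREBF2 and SREBF1 had log2FC of -0.63 (SE 0.13) and -0.47 (SE 0.10). NR5A2 (LRH-1), a nuclear receptor of bile acid and cholesterol genes, had 6, 38 and 17 counts in control replicates 1, 2 and 3 and 2 in each resistant library. It was called lower, but its resistant level is under the limit of 3 counts, so the size of its log2FC (-3.41, SE 0.74) is not well determined. The receptor gene ESRRA (log2FC 0.61, SE 0.16) and the zinc finger factor GATA6 (log2FC 0.48, SE 0.14) were higher. GATA6 was no longer called once control replicate 1 (edgeR adjusted p 0.0567) or resistant replicate 2 (0.0707) was left out. PPARG, the most abundant of the list, was not called (log2FC -0.08, SE 0.10). HNF4A, chosen after its value was seen, was not called and had 41.4 ± 4.74 CPM in resistant and 39.8 ± 1.89 CPM in control libraries (log2FC 0.05, SE 0.17). NR1H3 (LXR alpha), the oxysterol receptor that drives ABCA1 and APOE in many tissues, chosen likewise, was lower at 3.99 ± 0.659 CPM in resistant and 14.1 ± 3.57 CPM in control libraries (log2FC -1.77, SE 0.39).

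Other secreted hepatocyte proteins (26 genes, 13 tested) had 3 lower and 0 higher calls (median log2FC -0.69). That share of 23.1% called was near the 24.1% of all tested genes. ITIH2, a chain of the hyaluronan-binding inter-alpha-inhibitor, was lower (log2FC -1.04, SE 0.13). The others called were ALB (log2FC -1.62, SE 0.37) and the protease inhibitor SERPINA1 (log2FC -1.44, SE 0.49). SERPINA1 missed the threshold when control replicate 2 or 3, or resistant replicate 2 or 3, was left out (edgeR adjusted p 0.0543 to 0.114). Over the called genes named in these lists, the edgeR adjusted p ranged from 1.28e-12 for LRP1 to 0.0268 for SERPINA1.

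Enterocytes also make APOB and MTTP, and macrophages APOE and APOC1, so markers of other cell types were read. Of 10 enterocyte markers 3 were tested and 2 were lower, CDH17 (log2FC -0.85, SE 0.11), a cadherin of intestine and liver cancer, and the brush-border protein VIL1 (log2FC -1.12, SE 0.28). These 2 are 66.7% of the 3 tested, against 24.1% of all tested genes. The list summed to 211 to 266 CPM in control and 117 to 147 CPM in resistant libraries. CDH17 made up most of it, while FABP2 and SI had 4 and 2 counts in all. The 12 macrophage markers summed to 8.29 to 12.9 CPM in control and 9.41 to 12.5 CPM in resistant libraries. CD68 had 10 counts, and only PTPRC, the most abundant, was tested and was not called (log2FC 0.90, SE 0.57). Of 8 endothelial genes 2 were tested, and edgeR called 0 (1 at an unadjusted p under 0.05), DESeq2 0 and limma-voom 1, PECAM1, as lower. In edgeR 1 was called higher without control replicate 2, resistant replicate 1 or resistant replicate 2 and with the filter of at least 1 CPM in 3 libraries. With the replicate block or without resistant replicate 3, 1 was called lower, and with no filter 2 were called higher and 1 lower. KDR, the most abundant, had a log2FC of 0.47 (SE 0.21). The pericyte gene RGS5 was higher among 3 tested fibroblast and stellate genes (log2FC 1.53, SE 0.44), a call that depended on resistant replicate 3 (edgeR adjusted p 0.271 without it), and LUM, the most abundant of that list, was not called. Called were 33.3% of the tested genes in that list. Among 4 tested cholangiocyte genes (25% called) MUC1 was lower (log2FC -1.65, SE 0.49). Its edgeR adjusted p was 0.0813 without control replicate 1, and KRT19, the most abundant, was not called. The 4 did not move together (median log2FC 0.07). In 2 of them all resistant libraries lay above all control libraries, and in 1 all lay below (19.2% and 18.9% of all tested genes). Without control replicate 2, 1 was called higher and 1 lower. Of 13 transcripts of the mitochondrial genome, all tested, 6 were lower and 0 higher. This is 46.2% called, against 24.1% of all tested genes. Among the 6 were MT-ND2 (log2FC -0.31), MT-ND6 (-0.34) and MT-CYB (-0.28), while MT-ND4, the most abundant, was not called. The summed level of the 13 transcripts was 78234 to 81393 CPM in control and 69536 to 74630 CPM in resistant libraries. The part of enterocyte-type, mitochondrial or other marker levels in the results on APOB and MTTP was not tested.

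Likeness of pattern was measured as the root mean square difference of log2 CPM over the 6 libraries, each gene centred on its own mean, for the 5 genes with at least 5 CPM on average. Closest to APOB were C19orf66 (0.27), LRRC45 (0.30) and PDE4DIP (0.30), where the median tested gene was at 1.11. Closest to MTTP were the sodium channel subunit SCNN1A, the transcription factor PAX8 and the lymphocyte receptor LY9 (all 0.14, median 0.86). APOH was nearest to ACO1, ATG9A and TICAM1 (all 0.06, median 0.35). APOC1 was nearest to MRPL55 (0.10), C4BPA (0.11) and STX17 (0.12), with a median of 0.47, and APOE to APLF (0.14), PAQR4 (0.15) and PRMT6 (0.16), with a median of 0.52. None of these genes is one of the 10, and only LRRC45, PDE4DIP, SCNN1A and PAX8 among them were called, all lower. Being picked as the smallest of all distances, the values lie under the median by construction, for uncalled genes too, and are no evidence of shared control.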

How the data were processed

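The libraries, 3 control and 3 resistant, are from total RNA with the EasyRNA-seq protocol, per the labels' protocols. The authors deposited whole-number counts per gene symbol, not normalized; Trimmomatic, HISAT2 and Bowtie2 are the tools listed, per the submitters' processing notes. The counter, genome build, annotation and use of strand were not given in the sources used here. The 6 columns of the series table equalled the counts of the single libraries, and 27 symbols stored as dates were renamed from the Entrez ID. Totals were 1913469 to 5345272 counts. Of non-zero counts 63.6 to 69.1% were even, as would arise if both reads of each fragment had been counted.

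After filterByExpr, which kept 10804 genes, and TMM normalisation, resistant and control libraries were compared with edgeR 4.0.16 (quasi-likelihood F test, group as sole factor, R 4.3.3) and Benjamini-Hochberg adjustment over all tested genes. Calls are at an adjusted p of 0.05, and the SE is the log2FC over the square root of F. On simulated data for this comparison (10650 genes tested) 41.8% of genes changed 1.5-fold, 78.8% of those changed 2-fold and 92.1% of those changed 4-fold were recovered. Only 200 genes were changed there, whereas 2601 were called in the data. The rates are taken over genes of all depths and may not hold for low-count genes such as APOE and LCAT (SE 0.47 and 0.61). Log2 CPM for pattern likeness used a prior count of 2. Exon lengths and spans are from GENCODE 29, promoters from RefSeq (GRCh38.p14), and figures from matplotlib 3.10.9.

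Named were the 10 genes, and of each other list at most 3 called genes in each direction by p with the most abundant one, the 3 genes nearest in pattern and the cluster neighbours. APOO, APOOL, TTR, HP, FABP2, SI, CD68 and PECAM1, with those marked in the text, fall outside this rule and were picked with their values known. Some genes within the rule are not reported here, though the counts and medians of their lists include them. The genes and lists were chosen with earlier results of these data known. The analysis was repeated with DESeq2 1.42.0, with limma-voom (limma 3.58.1), with 3 other scalings (RLE, upper quartile, none), without a filter or with at least 1 CPM in 3 libraries, on halved counts, with a replicate block, at an adjusted p of 0.01 and without each library in turn.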

Additional observations from a re-analysis of the deposited data

How the results depend on the processing

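The calls of APOB and MTTP, and the absence of a call for APOH, APOC1, APOE and LCAT, held in each of the alternatives that tested them (16 for each gene, 15 for LCAT, which halved counts left untested). Over them the adjusted p ranged from 2.00e-05 to 0.013 for APOB and from 0.000145 to 0.0241 for MTTP. The log2FC of APOE turned negative without control replicate 2, control replicate 3 or resistant replicate 3 (range with 1 library left out, -0.13 to 0.52), and that of LCAT turned positive without control replicate 2 (-0.66 to 0.12); the cause was not tested. At an adjusted p of 0.01, a stricter threshold by construction, 1651 genes were called in place of 2601, and with 1 library left out 2001 to 2261. Scaling moved the median log2FC of all tested genes by under 0.05. The replicate block called 2518 genes and the same 2 of the 10, with a log2FC of -1.53 for APOB and -1.41 for MTTP. Same-numbered libraries did not deviate together over all genes (correlations across genes of -0.02, 0.03 and -0.01 for numbers 1, 2 and 3). The labels state no pairing, and such values cannot exclude a shared batch with a small effect or an effect on few genes. Depth limits the text on APOA1, APOA2, APOC3 and APOM, which most settings did not test and so could not call. With no filter APOA1, APOC3 and APOM were tested and not called (edgeR adjusted p 0.934, 0.656 and 0.832). With at least 1 CPM in 3 libraries 7 of the 10 genes were tested, and the calls were again 2. APOA2, at 0 in all libraries, was never tested.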
